A study of Homo sapiens with 12 samples.

Results

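EWS-FLI1, the fusion of the EWSR1 and FLI1 genes that drives most Ewing sarcoma tumors, switches on a recognizable set of genes, and 10 of them were followed here in 2 Ewing sarcoma cell lines, EW8 and TC71. The members were taken by symbol from a list of known activated targets of the fusion (NR0B1, NKX2-2, GLI1, BCL11B, PRKCB, PPP1R1A, CCK, NPY1R, STEAP1 and LIPI). They make up 10 of the 58721 genes in the count table. The rule goes by symbol and uses no measured value, but the list was drawn up with earlier results of these data known. All 10 passed the filter on low counts, and CCK did so through its EW8 libraries, since 0 of 3 TC71 vehicle libraries and 1 of 3 TC71 doxycycline libraries reached the cutoff of 0.209 CPM (counts per 1000000 counts of the library).

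Both lines carried a lentiviral, doxycycline-dependent construct for joint expression of c-Jun and c-Fos, which pair to form the classical AP-1 transcription factor. Cells received doxycycline (Dox) at 2000 ng/ml or the vehicle DMSO for 72 h, which gave 4 groups (EW8 vehicle, EW8 Dox, TC71 vehicle and TC71 Dox) of 3 RNA-seq libraries each. The labels list every library as wild type in genotype and do not say whether the engineered lines were clones or pools. No cells without the transgenes were treated with Dox among the libraries used here, so effects of the drug and of the induced proteins cannot be told apart. The labels do not state that replicates were separate cultures, and the p-values therefore measure the spread between these libraries, which may be technical.

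The FLI1 part of the fusion keeps an ETS DNA-binding domain, which reads the core GGAA. EWS-FLI1 also binds tandem GGAA repeats (GGAA microsatellites) and uses them as enhancers, by which it turns on genes that are often silent in normal mesenchymal cells. AP-1 binds a different motif, TGACTCA, and is known for its part in growth-factor responses, stress and cell migration. The 10 genes differ in what they encode. NR0B1 (DAX1), NKX2-2, GLI1 and BCL11B are transcription regulators, PRKCB and PPP1R1A act in kinase and phosphatase signaling, CCK and NPY1R belong to neuropeptide signaling, STEAP1 is a cell-surface protein of the metalloreductase family, and LIPI is a membrane-associated phospholipase.

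The repeats themselves are shown because EWS-FLI1 is known to use them as enhancers, though not every member has one near its start. In the hg38 reference, 3 of the 10 members had a run of at least 4 GGAA units, read on both strands, within 5 kb of the gene's start as given in the count table, in each case upstream of it. Over all 21013 tested genes this share was 3.65% (768 genes). The printed stretches are given on the minus strand, the coding strand of each of these genes, with the runs of GGAA in capitals. None of them overlaps a gene in GENCODE release 44.
NR0B1 (chrX:30310750-30310867): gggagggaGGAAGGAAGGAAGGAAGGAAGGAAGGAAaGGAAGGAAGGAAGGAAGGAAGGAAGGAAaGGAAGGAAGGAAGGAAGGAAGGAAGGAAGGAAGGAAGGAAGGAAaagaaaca
CCK, nearest (chr3:42266519-42266578): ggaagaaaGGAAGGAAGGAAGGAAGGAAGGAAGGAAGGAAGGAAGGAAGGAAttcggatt
CCK, middle (chr3:42266673-42266752): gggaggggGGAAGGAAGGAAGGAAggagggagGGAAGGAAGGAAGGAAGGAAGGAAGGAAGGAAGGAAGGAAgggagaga
CCK, farthest (chr3:42266829-42266896): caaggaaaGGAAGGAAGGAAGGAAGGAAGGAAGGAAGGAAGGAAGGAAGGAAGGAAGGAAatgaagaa
LIPI (chr21:14213284-14213343): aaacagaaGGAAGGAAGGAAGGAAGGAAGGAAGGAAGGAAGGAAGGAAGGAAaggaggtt

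The NR0B1 stretch holds 3 runs of 7, 7 and 11 units parted by single bases, the nearest 1160 bases upstream of the start. CCK has 4 runs of 11, 10, 4 and 13 units, between 320 and 630 bases upstream. LIPI has 1 run of 11 units, 2401 bases upstream. These are reference lengths, and the repeat lengths in EW8 and TC71 were not read.

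Farther out, 7 of the 10 members had a run within 100 kb, beside 54.9% of all tested genes. The longest was a run of 20 units 62.3 kb upstream of NKX2-2. A run of 17 units lay 54.0 kb downstream of the STEAP1 start, and 8 runs of 4 to 16 units lay around PRKCB, the nearest 31.1 kb downstream of its start. PPP1R1A had runs of 10 and 14 units about 36.3 kb upstream. GLI1, BCL11B and NPY1R had none in this window.

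**Figure D1:**
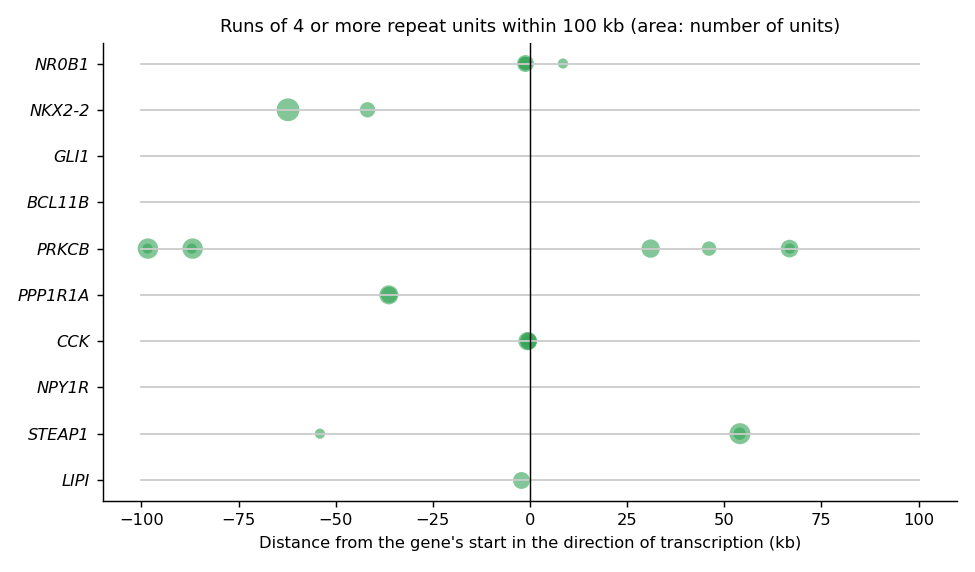
Runs of at least 4 GGAA units in hg38, on either strand, by distance (kb) from the start of each of the 10 genes, with upstream to the left and the area of a point in proportion to the number of units. NR0B1, CCK and LIPI have runs beside the start, NKX2-2, PRKCB, PPP1R1A and STEAP1 only at more than 30 kb, and GLI1, BCL11B and NPY1R none.

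The AP-1 motif was searched in the RefSeq promoters (GRCh38.p14, 250 bases before to 50 after a start), which were given for 8 of the 10 members, with 11 promoters between them. TGACTCA, on either strand, was found in 1 of these 11 promoters, the more upstream promoter of NKX2-2, and in 4.95% of all 35116 promoters. The related TGACGTCA was in 0 of the 11 and in 1.85% of all, and the short repeat GGAAGGAA was in 0 of the 11 and in 3.67% of all. RefSeq starts can lie far from the starts in the count table, which were used for the repeats. The NKX2-2 promoter with the motif spans 21522640 to 21522939. The start of NKX2-2 in the count table lies downstream of it, at 21514026. The NKX2-2 motif, in capitals below, lies 166 bases before the RefSeq start (minus strand, outside any gene in GENCODE release 44).
NKX2-2 (chr20:21522829-21522875): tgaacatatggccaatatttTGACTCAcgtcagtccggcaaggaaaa
A match of these letters describes the sequence and does not show binding.

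Depth was high and even. The libraries held 42860665 to 60853649 counts, with each mate of a read pair counted on its own, and 10 of the 12 replicate pairs differed by a chi-square per gene of 5.24 to 10.2. Both pairs that held TC71 vehicle replicate 1 stood apart, at 58.9 and 56.1, so some TC71 results are also given without that library. It moved others too. Without it the difference of the PPP1R1A responses between the lines was -0.59, and GLI1 in TC71 against EW8 under vehicle was -1.02. The induction was visible in every library. The log2 rise of JUN was 4.46 in EW8 (SE 0.12, adjusted p 1.93e-15) and 5.19 in TC71 (SE 0.13, adjusted p 2.36e-16), and that of FOS 4.87 and 7.08, with transgene and endogenous transcripts counted together. Of the 6 Ewing sarcoma markers, of which NR0B1, NKX2-2, STEAP1 and LIPI are members here, 0 were at the floor in any group, and the surface marker CD99 stood at 806 ± 16.9 CPM in EW8 vehicle and 558 ± 69.9 CPM in TC71 vehicle cells (SD, n = 3). Of the other cell types checked, the leukocyte markers summed to 64.9 to 80.2 CPM in EW8, nearly all of it PTPRC, and to at most 0.43 CPM in TC71, where 3 of 4 were at the floor (6 counts or fewer in all libraries of a group). The sum of 3 endothelial markers went with Dox from 7.22 to 8.48 CPM up to 36.1 to 43.7 CPM in EW8 and from no more than 0.0388 CPM up to 3.75 to 4.6 CPM in TC71. The sum of 4 epithelial markers went from 9.56 to 10.2 CPM up to 50.7 to 54.8 CPM in EW8, and was 176 to 215 CPM with vehicle and 227 to 241 CPM with Dox in TC71, where EPCAM went from 0.706 to 11.9 CPM. The sum of 8 fibroblast markers went from 165 to 180 CPM down to 141 to 150 CPM in EW8 and overlapped in TC71 (270.0 to 310 and 284 to 297 CPM). Its genes went both ways. In EW8 2 were called lower and 1 higher, beside 3.38% and 11.4% of all tested genes. In TC71 3 were lower and 2 higher, beside 3.67% and 12.3%. There COL1A1 went from 26.1 to 92.7 CPM and PDGFRB from 59.7 to 22.3 CPM. Whether these shifts bear on the 10 genes was not tested.

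The fusion's own parents changed little. EWSR1 went from 318 ± 13.2 to 289 ± 16.5 CPM in EW8 (adjusted p 0.0954, with -0.14 on the log2 scale) and fell by 0.34 on the log2 scale in TC71 (adjusted p 0.000205). FLI1 went from 42.9 ± 2.68 to 42.5 ± 1.68 CPM in EW8 and from 84.3 ± 4.22 to 75.8 ± 3.2 CPM in TC71, with log2 fold changes of -0.01 and -0.15 that did not pass (adjusted p 0.912 and 0.0707). Fusion and normal transcripts share these counts and were not separated. Of the other ETS partners known from Ewing sarcoma, ETV1 was lower with Dox, with log2 fold changes of -1.02 (EW8) and -0.50 (TC71). ERG rose to 1.35 CPM in EW8 and to 0.509 CPM in TC71, from 0.0598 CPM in EW8 vehicle and 0 counts in TC71 vehicle cells. ETV4 was at or under 0.333 CPM in every group.

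Levels per exon length were compared first, in CPM per kilobase of exon (RPKM), since the genes differ in length. In EW8 vehicle cells NR0B1 was highest at 90.3 ± 7.76 RPKM, followed by PPP1R1A at 51.1 ± 2.00 and STEAP1 at 49.8 ± 3.93, whose libraries overlapped. LIPI (27.3 ± 1.89), PRKCB (23.3 ± 0.561), NKX2-2 (20.4 ± 1.91), NPY1R (14.8 ± 0.768), BCL11B (10.9 ± 0.398) and GLI1 (6.41 ± 0.584) came next, each clear of its neighbor. CCK was lowest, at 0.181 ± 0.0506 RPKM. In TC71 vehicle cells the order began with STEAP1 at 99.5 ± 6.51 RPKM, then NR0B1 at 52.5 ± 6.87, PPP1R1A at 32.8 ± 1.41 and PRKCB at 29.3 ± 1.53, and the only neighbors that overlapped were NKX2-2 (5.58 ± 0.821) and BCL11B (5.35 ± 0.496). Dox changed the order. PPP1R1A dropped from the third to the fifth place in TC71, level with LIPI at 10.1 RPKM each, and in EW8 the libraries of PRKCB and NKX2-2, NKX2-2 and LIPI, BCL11B and NPY1R, and NPY1R and GLI1 overlapped.

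**Figure D2:**
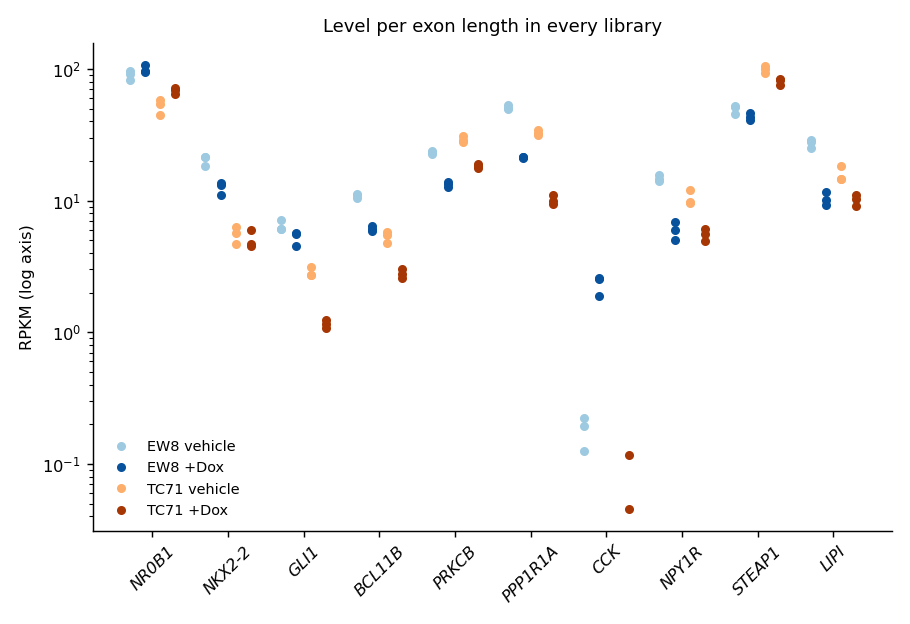
Level of the 10 genes in CPM per kilobase of exon (RPKM, log axis), 1 point per library and 1 color per group, with libraries at 0 and the TC71 vehicle libraries of CCK, at the floor, not drawn. NR0B1 is highest in both EW8 groups and STEAP1 in both TC71 groups, and CCK is lowest, rising from 0.181 to 2.34 RPKM on average in EW8 with Dox.

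Exons that overlap another gene are not counted there, so some levels are understated. The shared part was 33.2% of the exon bases for CCK, 30.5% for NKX2-2 (with NKX2-2-AS1), 12.6% for NPY1R (with NPY5R), 11.1% for PPP1R1A (with PDE1B) and 0.19% for GLI1, in each case with a gene on the opposite strand. The other 5 members shared none.

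The main comparison asked what happened to these fusion-activated genes when c-Jun and c-Fos were expressed. Most of them fell. In EW8, 3 of 10 were called lower at an adjusted p under 0.05 and a log2 fold change under -1, where 3.38% of all tested genes were, and 1 was called higher, where 11.4% were. In TC71, 2 were called lower (3.67% of all genes) and 0 higher (12.3%) by edgeR, with 0 higher in DESeq2 as well and 1 at an unadjusted p under 0.05. With the adjusted p alone, 7 of 10 were lower in each line, beside 22% of all genes in EW8 and 20.4% in TC71, and 1 was higher in each line, beside 21.9% and 25.1%. The median log2 fold change of the 10 was -0.76 in EW8 and -0.66 in TC71, against -0.03 and 0.00 over all tested genes. Fewer cells that express a gene and less RNA per cell cannot be told apart in bulk libraries.

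**Figure D3:**
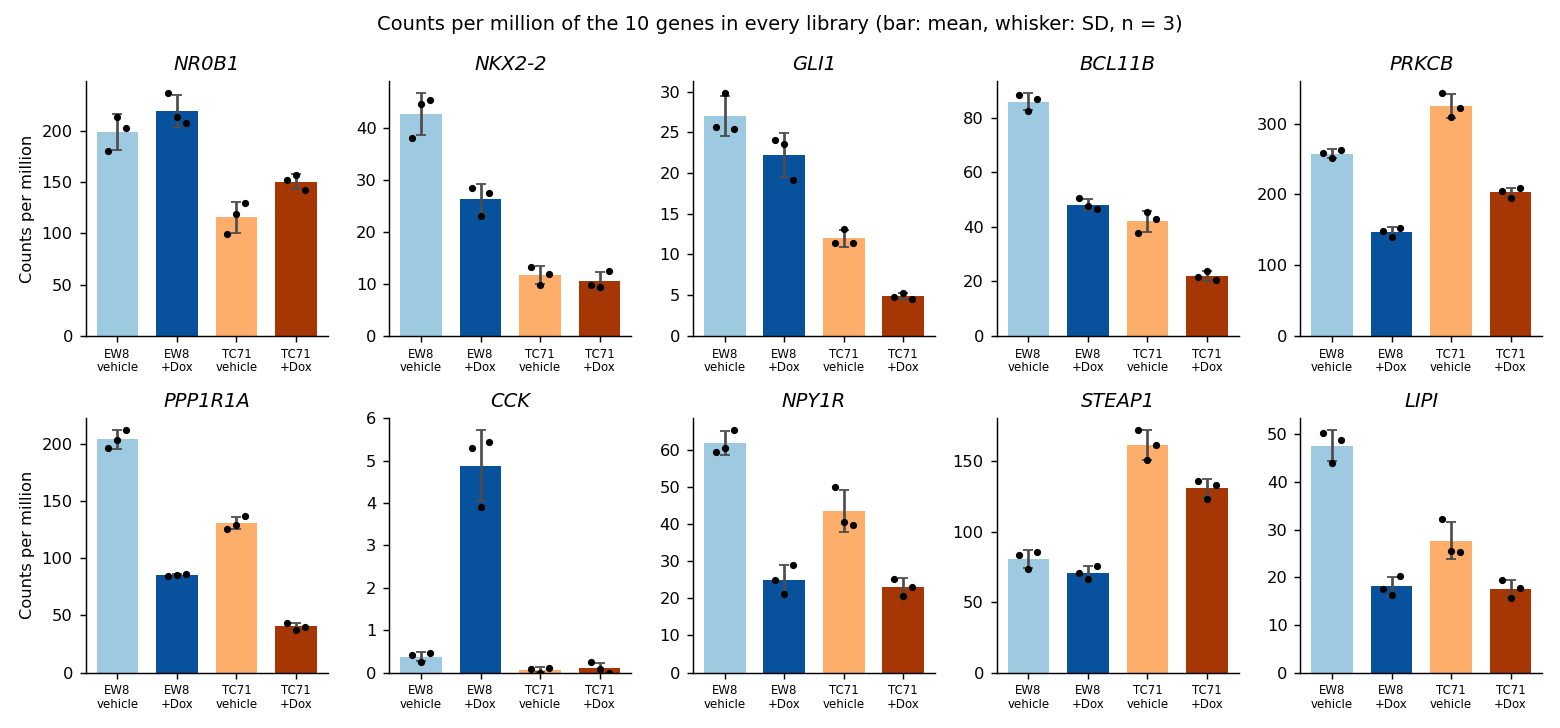
CPM of each of the 10 genes in the 12 libraries, with a bar at the mean of 3 libraries, a whisker of 1 SD and a point per library; each panel has its own axis starting at 0. PPP1R1A, PRKCB, BCL11B, GLI1, NPY1R and LIPI lie lower with Dox in all 3 libraries of both lines, though the GLI1 change in EW8 does not pass. NR0B1 does not fall, and CCK rises in EW8.

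PPP1R1A, which encodes an inhibitor of protein phosphatase 1 that protein kinase A activates, was the member that fell in both lines past the fold limit. It lies on chromosome 12 (54575387 to 54588659, minus strand). Its levels in EW8 were 196, 203 and 212 CPM with vehicle and 84.2, 85.4 and 86.1 CPM with Dox. In TC71 they were 126, 129 and 137 CPM with vehicle and 43.6, 37.5 and 39.7 CPM with Dox. The groups did not overlap in either line. On the log2 scale the fall was -1.26 in EW8 (adjusted p 7.56e-12, SE 0.06) and -1.70 in TC71 (adjusted p 1.23e-13, SE 0.06), by edgeR's quasi-likelihood test. Dox cells thus kept 41.9% and 30.8% of the vehicle level. The fall was deeper in TC71 by 0.44 (SE 0.09, adjusted p 0.00125), and without TC71 vehicle replicate 1 it was -1.80 in TC71.

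PRKCB, protein kinase C beta, a kinase activated by diacylglycerol and calcium, fell to a like extent in both lines (chromosome 16, 23835946 to 24220611, plus strand). Its CPM values went from 259, 251 and 263 to 148, 140 and 152 in EW8, and from 343, 310 and 322 to 204, 195 and 209 in TC71. No Dox library reached a vehicle library of its line. The change in log2 units was -0.81 for EW8 (adjusted p 7.33e-10, SE 0.05) and -0.68 for TC71 (adjusted p 6.9e-09, SE 0.05), under the fold limit in both. The lines did not differ detectably in this response (0.13, 95% confidence interval -0.03 to 0.29, adjusted p 0.267).

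Among the transcription regulators, BCL11B fell in both lines. This zinc-finger repressor, known for its part in T-cell and neuronal development, lies on chromosome 14 (99169287 to 99271524, minus strand). It stood at 88.4, 82.3 and 86.7 CPM in EW8 vehicle and at 50.3, 47.5 and 46.4 CPM in EW8 Dox libraries, and at 37.7, 45.3 and 42.9 CPM against 21.7, 23.8 and 20.4 CPM in TC71. The Dox libraries all lay below the vehicle libraries of their line. In log2 terms these were falls of -0.83 (adjusted p 7.73e-08, SE 0.08) and -0.93 (adjusted p 2.2e-08, SE 0.08). Without TC71 vehicle replicate 1, the lowest vehicle library for this gene, the TC71 change was -1.09, a call. The contrast between the lines then passed the adjusted p too (-0.30, adjusted p 0.0322), which with all libraries it did not (-0.10, adjusted p 0.621).

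GLI1, the transcription factor at the end of the Hedgehog pathway that EWS-FLI1 is known to activate directly, responded differently in the lines. It lies on chromosome 12 (57460135 to 57472262, plus strand). In EW8 the libraries stood at 25.7, 29.8 and 25.4 CPM with vehicle and at 24.0, 23.5 and 19.1 CPM with Dox. The groups did not overlap, but the change of -0.28 (SE 0.11) missed the threshold at an adjusted p of 0.0547. Over the alternatives this GLI1 change ranged from -0.34 (library size alone, adjusted p 0.0183) to -0.14 (without EW8 Dox replicate 3, adjusted p 0.4175). In TC71 they stood at 11.4, 13.1 and 11.4 CPM with vehicle and at 4.82, 5.23 and 4.53 CPM with Dox, which was -1.30 on the log2 scale (adjusted p 7.55e-08, SE 0.12), or -1.42 without TC71 vehicle replicate 1. The difference of the responses, TC71 minus EW8, was -1.02 (SE 0.17, adjusted p 0.000221). This was the only one of the 10 differences that passed both the fold limit and the adjusted p, where 2.87% of all tested genes were called in that direction and 4.18% in the other. By adjusted p alone 2 of the 10 differences were negative and 2 positive, beside 7.07% and 12.2% of all genes. The GLI1 difference was -0.99, -0.95 and -0.98, with the adjusted p still under the threshold, without EW8 vehicle replicate 1, TC71 vehicle replicate 2 or TC71 Dox replicate 3, and -1.22 without EW8 Dox replicate 3.

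NKX2-2, a homeodomain repressor used as a diagnostic marker of Ewing sarcoma, fell in EW8 and not detectably in TC71. It lies on chromosome 20 (21511010 to 21514026, minus strand). Its EW8 levels were 38.0, 44.5 and 45.2 CPM with vehicle and 28.3, 22.9 and 27.5 CPM with Dox. Its TC71 levels were 13.2, 9.84 and 11.9 CPM with vehicle and 9.79, 9.41 and 12.4 CPM with Dox. The groups were apart in EW8 and overlapped in TC71. For EW8 this was -0.70 in log2 units (adjusted p 0.000164) and for TC71 -0.14 (adjusted p 0.421), each with an SE of 0.13, with a 95% confidence interval of -0.42 to 0.14 in TC71. The difference between the lines passed narrowly (0.56, SE 0.18, adjusted p 0.0400), and the adjusted p ranged up to 0.221 when single libraries were left out or settings changed.

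NR0B1, an orphan nuclear receptor that acts as a corepressor and is among the best known targets of EWS-FLI1 through its GGAA repeat, did not fall in either line. It lies on the X chromosome (30304206 to 30309598, minus strand). The EW8 libraries overlapped, at 180, 214 and 203 CPM with vehicle and 237, 214 and 207 CPM with Dox, and the change of 0.14 did not pass (SE 0.08, adjusted p 0.199). Over the alternatives this EW8 change ranged from 0.07 (without EW8 vehicle replicate 1) to 0.22 (without EW8 Dox replicate 3). Its adjusted p lay between 0.00894 and 0.585, so the result depends on the setting. In TC71 the 3 Dox libraries, at 152, 157 and 143 CPM, lay above the vehicle libraries at 99.3, 119 and 129 CPM. That rise was 0.38 in log2 units (adjusted p 0.00124, SE 0.09). TC71 vehicle replicate 1 was the lowest of the 12 libraries for NR0B1, and without it the rise was 0.20 (adjusted p 0.018).

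**Figure D4:**
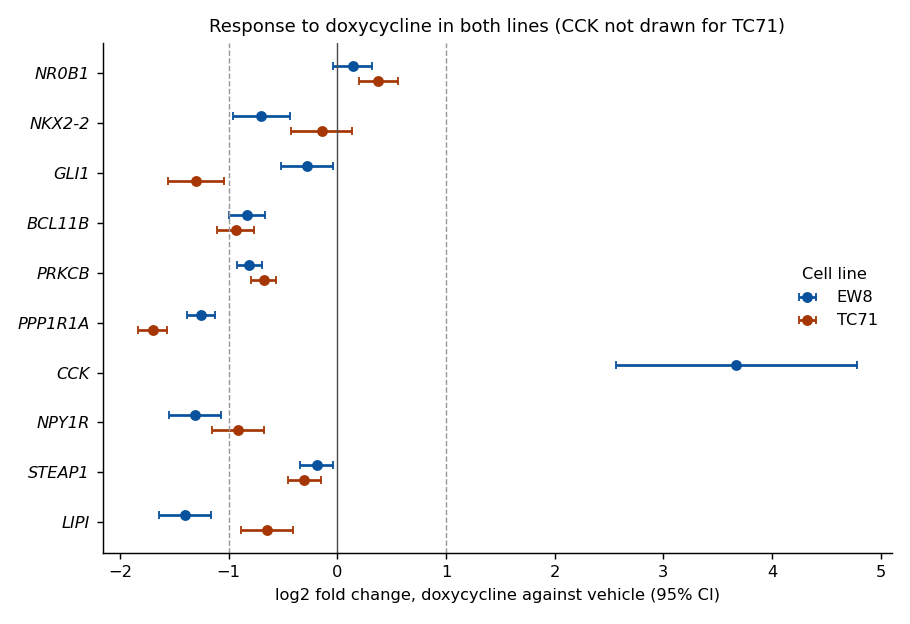
Log2 fold change of Dox against vehicle for the 10 genes in EW8 and TC71, with 95% confidence intervals from the edgeR fit and dashed lines at the fold limit of 1. GLI1 and PPP1R1A are lower in TC71 than in EW8, LIPI and NKX2-2 lower in EW8, NR0B1 lies at or above 0, and CCK, not drawn for TC71, stands alone at 3.67 in EW8.

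The neuropeptide genes moved in opposite directions in EW8. NPY1R, a receptor for neuropeptide Y, lies on chromosome 4 (163323961 to 163344832, minus strand). It went from 59.3, 60.6 and 65.4 CPM to 24.9, 21.2 and 28.9 CPM in EW8 and from 50.1, 40.6 and 39.9 CPM to 25.3, 20.6 and 23.2 CPM in TC71, with no overlap in either line. The falls were -1.31 (EW8, adjusted p 2.59e-08) and -0.92 (TC71, adjusted p 2.24e-06) on the log2 scale, each with an SE of 0.11. The difference between these responses was 0.39 (95% confidence interval 0.05 to 0.72) and did not pass after adjustment (adjusted p 0.102). It was 0.18 without EW8 Dox replicate 2 (adjusted p 0.493) and 0.38 without TC71 vehicle replicate 1 (adjusted p 0.0477).

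CCK, which encodes the peptide hormone cholecystokinin, was the only member that rose past the fold limit. It lies on chromosome 3 (42257825 to 42266207, minus strand). The EW8 libraries held 0.406, 0.261 and 0.467 CPM with vehicle and 5.3, 3.91 and 5.43 CPM with Dox, a log2 rise of 3.67 (adjusted p 1.44e-05, SE 0.52). The groups were far apart, though the vehicle libraries held only 18, 12 and 26 counts. In TC71 it was close to undetected, with 4, 0 and 6 counts under vehicle and 10, 4 and 0 with Dox, and no fold is given. The difference between the lines did not pass (adjusted p 0.0799). Since CCK passed the filter through EW8 and was near the floor in TC71, nothing is drawn from this contrast.

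STEAP1, a cell-surface protein that is also a target of antibody-based therapies under study, fell slightly in both lines (chromosome 7, 90154375 to 90164829, plus strand). Its libraries overlapped in EW8, at 83.7, 73.6 and 85.4 CPM with vehicle and 70.5, 66.3 and 75.7 CPM with Dox. They did not in TC71, at 172, 151 and 162 CPM against 136, 123 and 133 CPM. The log2 falls of -0.19 (adjusted p 0.039) and -0.30 (adjusted p 0.00172) each had an SE of 0.07. The first was lost without EW8 Dox replicate 2, where the adjusted p was 0.371.

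LIPI, a membrane-associated phospholipase that is otherwise largely restricted to testis, lies on chromosome 21 (14108813 to 14210891, minus strand). It went from 50.2, 43.9 and 48.8 CPM to 17.6, 16.3 and 20.4 CPM in EW8 and from 32.2, 25.6 and 25.3 CPM to 19.4, 15.7 and 17.8 CPM in TC71. In neither line did the groups overlap. Its EW8 fall of -1.40 in log2 units (adjusted p 1.08e-08, SE 0.11) was the largest of a member in that line, and its TC71 fall was -0.65 (adjusted p 0.000117, SE 0.11). The difference of the responses was 0.75 (SE 0.16, adjusted p 0.00249).

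Read against the sequences printed above, the 3 genes with GGAA runs near their start did not respond alike. In EW8, CCK rose and LIPI fell. The change of NR0B1 there did not pass, though its adjusted p ranged down to 0.00894 over the alternatives. The comparison is of 3 genes and carries no test.

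The lines already differed under vehicle. Compared with EW8, 4 members were called lower in TC71 (18.9% of all tested genes were) and 0 higher by edgeR (11.6%), against 1 higher in DESeq2, and by adjusted p alone 8 were lower and 2 higher (2 also at an unadjusted p under 0.05), beside 33.5% and 28.2% of all genes. The vehicle libraries enter both this comparison and the responses above. For NKX2-2 the log2 fold change was -1.87 (SE 0.13, adjusted p 5.46e-10), for GLI1 -1.17 (SE 0.12, adjusted p 6.06e-08) and for BCL11B -1.03 (SE 0.08, adjusted p 1.93e-09). CCK is the fourth, but it passed the filter through EW8 and had to differ, and 3 of the other 9 were called lower without it. STEAP1 was higher in TC71 by 1.00 (SE 0.07, adjusted p 8.81e-10), just under the fold limit. Leaving out TC71 vehicle replicate 1 took BCL11B to -0.85 and off the calls, and STEAP1 to 1.06 and into them. Other alternatives moved these calls as well. BCL11B was -0.998 with only the compared groups, -0.989 without EW8 vehicle replicate 3 and -0.940 without EW8 Dox replicate 1 or 2. STEAP1 kept its side of the fold limit in 6 of 19 alternatives.

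With Dox, 5 members were called lower in TC71 than in EW8 (18.4% of all genes) and 0 higher by edgeR (12.6%) or DESeq2. By adjusted p alone 6 were lower and 2 higher (again 2 by the unadjusted p), beside 32.3% and 30.2% of all genes. GLI1 differed by -2.19 (SE 0.12, adjusted p 2.94e-11) and PPP1R1A by -1.08 (SE 0.06, adjusted p 4.18e-11), and NKX2-2 (-1.31) and BCL11B (-1.13) again lay lower. CCK, at 4.88 ± 0.842 CPM in EW8 and 0.113 ± 0.122 CPM in TC71, was the fifth, again as a gene that passed the filter through EW8, and without it 4 of 9 were called lower. LIPI and NPY1R, which were lower in TC71 under vehicle by -0.78 and -0.51, came level with Dox. Their libraries overlapped, with differences of -0.04 (95% confidence interval -0.28 to 0.21, adjusted p 0.811) and -0.12 (95% confidence interval -0.36 to 0.12, adjusted p 0.393).

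A list of 42 further activated targets of EWS-FLI1, all of them tested, was counted beside the 10. In EW8 10 were called lower and 1 higher (3.38% and 11.4% of all tested genes were), and in TC71 9 were lower and 2 higher (3.67% and 12.3%). By adjusted p alone 31 and 33 were lower, beside 22% and 20.4% of all genes, and 7 and 5 higher, beside 21.9% and 25.1%. The median log2 fold change was -0.55 in EW8 and -0.63 in TC71. The genes called lower in both lines were DKK2 (-1.22 and -1.15), a Wnt pathway modulator, TERT (-1.11 and -2.34), the catalytic subunit of telomerase, LOXHD1 (-1.38 and -1.74), PAX7 (-1.25 and -1.27), a paired-box factor of muscle stem cells, PCSK2 (-1.14 and -1.18), a prohormone convertase, IL1RAP (-1.04 and -1.07), a coreceptor for interleukin-1, and KLF15 (-2.59 and -1.12). In linear terms PAX7 went from 106 ± 5.4 to 44.4 ± 1.83 CPM in EW8 and from 105 ± 5.32 to 43.7 ± 2.03 CPM in TC71.

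Against this direction, 7 genes rose in EW8 and 5 in TC71 by adjusted p alone, beside 21.9% and 25.1% of all genes. The calls among them were 1 in EW8 and 2 in TC71. CALCB, a calcitonin gene-related peptide, rose in both lines by 1.12 and 1.66. PAPPA, a protease of insulin-like growth factor binding proteins, rose by 2.66 (SE 0.06, adjusted p 2.34e-16) in TC71 and by 0.85, under the fold limit, in EW8. GSTM4, a glutathione transferase, was among the 4 largest falls of this list in EW8 (-1.34) and fell less in TC71 (-0.76). Within 5 kb of the start, 8 of the 42 (19%) had a run of at least 4 GGAA units.

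**Figure D5:**
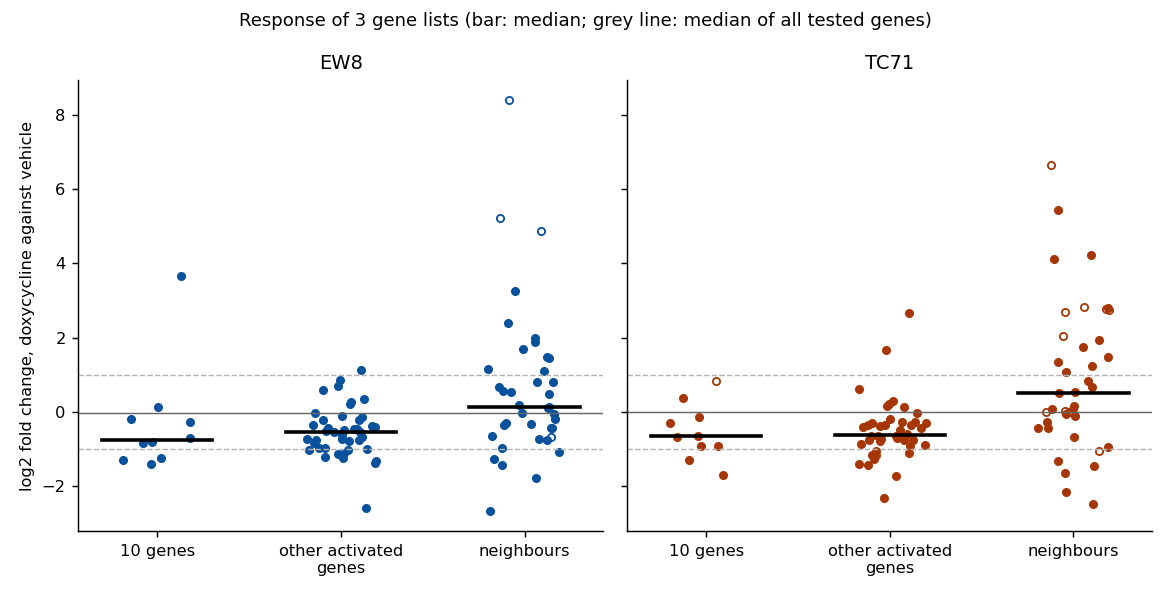
Log2 fold change of Dox against vehicle in EW8 (left) and TC71 (right) for the 10 genes, the 42 other fusion-activated genes and the 39 tested pathway and family neighbors, with a bar at each median, a grey line at the median of all tested genes and open circles for genes at the floor in a group. The first 2 lists center below 0 (medians -0.76 and -0.55 in EW8, -0.66 and -0.63 in TC71), while the neighbors spread to both sides.

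Genes of the same pathways and families were examined next, 52 in all and 39 of them tested. In EW8 11 were called higher and 4 lower, beside 11.4% and 3.38% of all tested genes, and in TC71 14 were higher and 4 lower, beside 12.3% and 3.67%. Of those called higher, 3 in EW8 and 5 in TC71 were at the floor in the vehicle group, so that they passed the filter through other groups. Their median log2 fold change was 0.14 in EW8 and 0.50 in TC71, and 0.11 and 0.08 when the bounds were used for genes at the floor.

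In the Hedgehog pathway, in which a ligand releases SMO from inhibition by PTCH1 and so activates the GLI factors, members were called in both directions. The receptor PTCH1, which GLI factors are known to induce, fell in both lines. It went from 26.1 ± 2.18 to 9.66 ± 1.39 CPM in EW8 and from 50.5 ± 3.39 to 18.2 ± 1.21 CPM in TC71, which were log2 falls of -1.43 (adjusted p 4.2e-09, SE 0.11) and -1.47 (adjusted p 1.51e-09, SE 0.11). HHIP, a decoy for the ligands, fell by 2.49 (SE 0.55, adjusted p 0.000978) in TC71, from 3.74 ± 1.19 CPM. In EW8 it was close to undetected, with 0, 12 and 4 counts under vehicle and 4, 0 and 6 with Dox, and no change is read there. GLI3, the member of the family that mostly represses, rose from 40.3 ± 1.7 to 212 ± 3.8 CPM in EW8 and from 20.7 ± 3.07 to 44 ± 2.99 CPM in TC71, by 2.40 and 1.08. GLI2 stood at 33.5 and 32.7 CPM in EW8 (log2 fold change -0.04, adjusted p 0.833) and fell by 0.95 in TC71, and this difference between the lines passed (-0.92, adjusted p 0.000342), as it did for GLI1. SMO, the signal transducer, fell by 0.43 in EW8, and SUFU, an inhibitor of GLI factors, by 0.44 in each line.

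In the neuropeptide Y system, the ligand and its receptor moved apart. NPY itself rose from 0.199 ± 0.079 to 0.466 ± 0.189 CPM in EW8 and from 0.368 ± 0.0733 to 16.4 ± 1.96 CPM in TC71. In log2 units NPY gained 1.16 (adjusted p 0.0139, SE 0.36) and 5.45 (adjusted p 7.33e-12, SE 0.27), and their difference was 4.30 (adjusted p 4.04e-06). DPP4, a peptidase that trims neuropeptide Y, rose by 1.46 in EW8 and 4.22 in TC71. NPY5R, whose exons overlap those of NPY1R, fell by 0.75 in EW8 (adjusted p 0.0273) and had 1.63 (vehicle) and 1.8 CPM (Dox) in TC71. PPY, the pancreatic polypeptide, was at the floor in EW8 vehicle cells and at least 3.74-fold higher with Dox. Of the receptors for cholecystokinin, CCKBR had 0 counts in all 6 vehicle libraries and was at least 6.88-fold higher with Dox in EW8 (0.856 ± 0.11 CPM) and at least 2.3-fold higher in TC71 (0.251 ± 0.168 CPM).

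STEAP3, a ferrireductase of endosomes, moved against STEAP1. It rose from 97.9 ± 5.73 to 364 ± 13.2 CPM in EW8 (1.89, SE 0.06, adjusted p 2.81e-14) and from 44.5 ± 3.09 to 771 ± 38.7 CPM in TC71 (4.12, SE 0.07, adjusted p 2.72e-18). STEAP2, next to STEAP1 on chromosome 7, fell by 0.98 in EW8 and 0.27 in TC71, both under the fold limit. STEAP1B did not pass in either line.

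Other protein kinase C isoforms also rose while PRKCB fell. PRKCA rose from 17.9 ± 1.4 to 50.4 ± 2.67 CPM in EW8 and from 85.6 ± 13.9 to 326 ± 4.26 CPM in TC71, by 1.49 and 1.93 on the log2 scale. PRKCE, a calcium-independent isoform, rose by 1.68 and 1.75. Of the 7 tested isoforms, 2 were called higher in EW8 and 3 in TC71, beside 11.4% and 12.3% of all tested genes. In both lines 0 were called lower, beside 3.38% and 3.67%.

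The phosphatase 1 inhibitors, 6 of them tested, went both ways. In EW8 2 were called lower and 0 higher, beside 3.38% and 11.4% of all tested genes. In TC71 1 was lower and 3 higher, beside 3.67% and 12.3%. PPP1R1B (DARPP-32), the closest relative of PPP1R1A in this list, fell in both lines by 2.67 and 2.17, from no more than 0.677 CPM. The most abundant, PPP1R14B, rose from 62.3 to 109 CPM in EW8 and from 186 to 295 CPM in TC71. PPP1R14C was lower with Dox in EW8 (-1.78) and, like PPP1R1C and PPP1R14A, at the floor in TC71 vehicle cells. Of the NKX2 family NKX2-8 was called higher in TC71, from 0.225 ± 0.0674 to 1.59 ± 0.43 CPM, and was at the floor in both EW8 groups. Of the 5 tested, 0 were called lower, and by adjusted p alone 1 was lower in each line, beside 22% and 20.4% of all genes. NKX2-4 went from 10.3 to 6.49 CPM in EW8 and from 32.9 to 24.1 CPM in TC71. In TC71 NKX2-3 went from 3.56 to 2.24 CPM and NKX2-5 from 20.6 to 21.8 CPM. The lipase LIPH, which like LIPI makes lysophosphatidic acid, rose from 0.181 ± 0.0514 to 1.77 ± 0.453 CPM in EW8 and from 0.577 ± 0.253 to 1.48 ± 0.393 CPM in TC71. BCL11A, the only relative of BCL11B listed, had 0 counts in all 12 libraries.

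For each member above the floor in every group, the tested genes with the most similar log2 CPM over the 12 libraries were listed, as a description in which the line and the treatment make up most of the variation. PRKCB was closest to NLN (Pearson r 0.997), PNN (0.991) and PRPF38A (0.991). PPP1R1A was closest to STMN1 (0.996), RBBP4 (0.994) and KIF2C (0.993), and BCL11B to TTYH2 (0.994), MCM6 (0.994) and TMEM229A (0.993). The genes nearest to STEAP1 were GRK3 (0.995), ETFA (0.993) and CAPRIN1 (0.993), and those nearest to GLI1 were MAFA, NFIX and MOV10 (0.994 to 0.992). LIPI and NPY1R shared LRRCC1 among their 3 nearest genes (0.985 and 0.982). The others were DDIAS and ZHX1 for LIPI, CCT2 and PLK4 for NPY1R, ANAPC1P1, GLE1 and ING4 for NKX2-2, and PORCN, CHCHD2 and LLGL1 for NR0B1, with r between 0.983 and 0.991.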

How the data were processed

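Polyadenylated RNA was made into stranded libraries. The authors checked reads with FastQC, aligned them with STAR to hg38 (GRCh38) and assigned them to exons of GENCODE release 29 with featureCounts 2.0.1. The deposited values were raw counts per gene. Per the file headers, the counter ran with default options, so each mate was counted, strand was ignored, and reads on overlapping genes or with several hits were left out.

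Counts were tested with edgeR 4.0.16 in R 4.3.3 (filterByExpr, TMM, quasi-likelihood F-test) in 1 fit of all 12 libraries with the 4 groups as levels. The filter left 21013 genes with 99.95% of the counts, and p-values were adjusted over these by Benjamini-Hochberg. Calls needed an adjusted p under 0.05 with a log2 fold change beyond 1 in either direction. CPM used TMM scaling, and RPKM divided CPM by exon length. DESeq2 1.42.0, other scalings and filters, a fit of the compared groups, a replicate block and leaving out each library were the alternatives. Floors cover counting error only. Both edgeR and DESeq2 were tested on simulated data.

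The 10 genes, the lists and the rule for named genes were chosen with earlier results of these data known. Named were the 10, JUN, FOS, the fusion's genes, of each list those called in both lines and the 4 largest calls per line, and, where a family was described, members above 1 CPM. GGAA runs and motifs were found by exact letter search in Python 3.11.15. Protein sequences were not used here, and the result of 1 listed gene is not reported here.

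Replicate numbers did not pair the libraries: deviations from the group means of same-numbered vehicle and Dox libraries correlated at -0.072 to 0.076.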

Additional observations from a re-analysis of the deposited data

Results flagged for a closer look

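For 4 of the 10 genes the response to Dox differed between the lines in the test of the difference itself (TC71 minus EW8, edgeR's interaction contrast, adjusted over all genes), where 12.2% of all tested genes passed with a positive and 7.07% with a negative difference. For GLI1 the difference was -1.02 (adjusted p 0.000221), with a fall of 1.30 in TC71 and a change of -0.28 in EW8. For PPP1R1A it was -0.44 (adjusted p 0.00125), with falls in both lines. LIPI differed by 0.75 (adjusted p 0.00249) and NKX2-2 by 0.56 (adjusted p 0.0400), in both cases with the deeper fall in EW8. The NKX2-2 difference passed only narrowly. It was 0.37 without EW8 Dox replicate 2, and its adjusted p ranged up to 0.221 over the alternatives. The causes were not tested.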

How the results depend on the processing

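Of 934 log2 fold changes of the 10 genes under the alternatives, 902 kept their direction and their side of the call, 8 lost the call, 21 gained it and 3 changed sign. A call needs both thresholds, so results that rest on the adjusted p alone count as kept even where they were lost. The STEAP1 fall in EW8 and the NKX2-2 difference between the lines were of this kind, with adjusted p up to 0.371 and 0.221. The sign changes, none of them of a value past the threshold, came from leaving out single libraries: CCK in TC71 ranged from -0.37 (without TC71 Dox replicate 1) to 1.54, PRKCB in the difference between the lines from -0.0053 (without EW8 Dox replicate 2) to 0.16, and LIPI in TC71 against EW8 with Dox from -0.12 to 0.042 (without TC71 Dox replicate 2). With at least 10 counts in every library CCK was not tested, so that 0 members were called higher in EW8, and the neighbors called numbered 5 higher and 2 lower in EW8 and 6 higher and 2 lower in TC71. With library size alone as the scaling, 4 members were called lower in TC71, BCL11B and NPY1R being added. In the difference between the lines, 2 members were called lower with DESeq2 and 2 with no filter, CCK being added. Under vehicle, 1 member (STEAP1) was called higher in TC71 with DESeq2, with median-ratio size factors, with only the compared groups and with the replicate block. Leaving out single libraries gave 0 to 1 other activated genes higher and 6 to 12 lower in EW8, 0 to 2 members lower in the difference and 0 to 1 higher in TC71 under vehicle. The replicate block changed no other count past 1.5 times: the numbers of members called stayed at 3 lower in EW8 and 2 lower in TC71. No scaling moved the median of all genes by over 0.1. CCK in TC71, at or near the floor, is limited by depth.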
